A study of Mus musculus with 2 samples.

Results

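The DNA replication machinery was examined as a list of 46 genes whose proteins mark replication origins, unwind DNA and copy it. The members were chosen by symbol and not by a rule on their values, though earlier results of these data were known. Of the 46, 46 were found among the 50508 genes of the deposited table. The samples are E14 cells (strain 129/Ola, passages 15 to 18), a line of mouse embryonic stem cells. They were kept on gelatin in 15% serum with 1000 U/ml of leukemia inhibitory factor and transfected by Lipofectamine RNAiMAX with a scramble siRNA, which has no intended target, or with an siRNA against Mettl8. Total RNA was taken with Trizol 72 h later. The design speaks of triplicates, but the table has 1 column for each siRNA and no label says how many cultures a column stands for, so no difference below can be set against a spread between cultures and none was tested.

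Values are FPKM, which scale the fragments of a gene to its length and to the depth of the library. Where a pair of values is given, the first is from the library labelled scramble siRNA and the second from the library labelled Mettl8 siRNA. A difference is the log2(FPKM + 1) of the second library less that of the first. Intervals are exact 95% intervals from rebuilt read counts of 1 library per label and cover counting error only. They take each read as its own molecule, since PCR copies of 1 molecule cannot be recognised without molecular identifiers. In bulk RNA, fewer cells that copy DNA and less RNA per cell cannot be told apart.

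Depth was close in both libraries, at 22.2 and 21.4 M reads in the genes of the table. Mettl8 itself went against its label, at 0.67 and 100.3 FPKM, a ratio of 149.8 (123 to 182). Each direction below therefore follows the label of the library and not a knockdown. Stem cell markers were detected in both libraries, though 9 of 10 were lower in the second, as given below. The lowest of the 10, Klf4, was 20.1 and 17.5 FPKM. All 10 thus had a mean of at least 1 FPKM, and 0 of 10 fibroblast markers did. Of 10 markers of differentiated lineages, 1 reached that level.

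Replication starts at origins bound by the origin recognition complex (ORC), where CDC6 and CDT1 load the ring-shaped MCM helicase in a step called licensing. The kinase CDC7 with DBF4, together with cyclin-dependent kinases, then turns loaded MCM into an active helicase by adding CDC45 and GINS. DNA polymerase alpha-primase lays primers, polymerases epsilon and delta extend them, and PCNA, the sliding clamp opened by replication factor C (RFC), holds the polymerases on DNA. Mouse embryonic stem cells divide quickly, spend much of their cycle in S phase and are known for abundant licensing factors.

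The replication genes were abundant in both libraries. Their median level was 16.9 and 18.3 FPKM, with a range from 1.70 to 80.6 in the first library and from 1.95 to 81.7 in the second. Among 21461 protein-coding genes ranked by level, the median member lay at percentile 92.6 and 93.1. Orc5 was lowest, at percentile 59.5 and 61.4, followed by Pola1 at 72.8 and 73.5. Together the 46 genes held 108525 and 110065 reads, which is 0.778% and 0.799% of the reads of protein-coding genes. The order of levels was nearly the same in the libraries (Spearman rho 0.991 across 46 genes, which share gene lengths and counting between the libraries and are not independent).

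**Figure D1:**
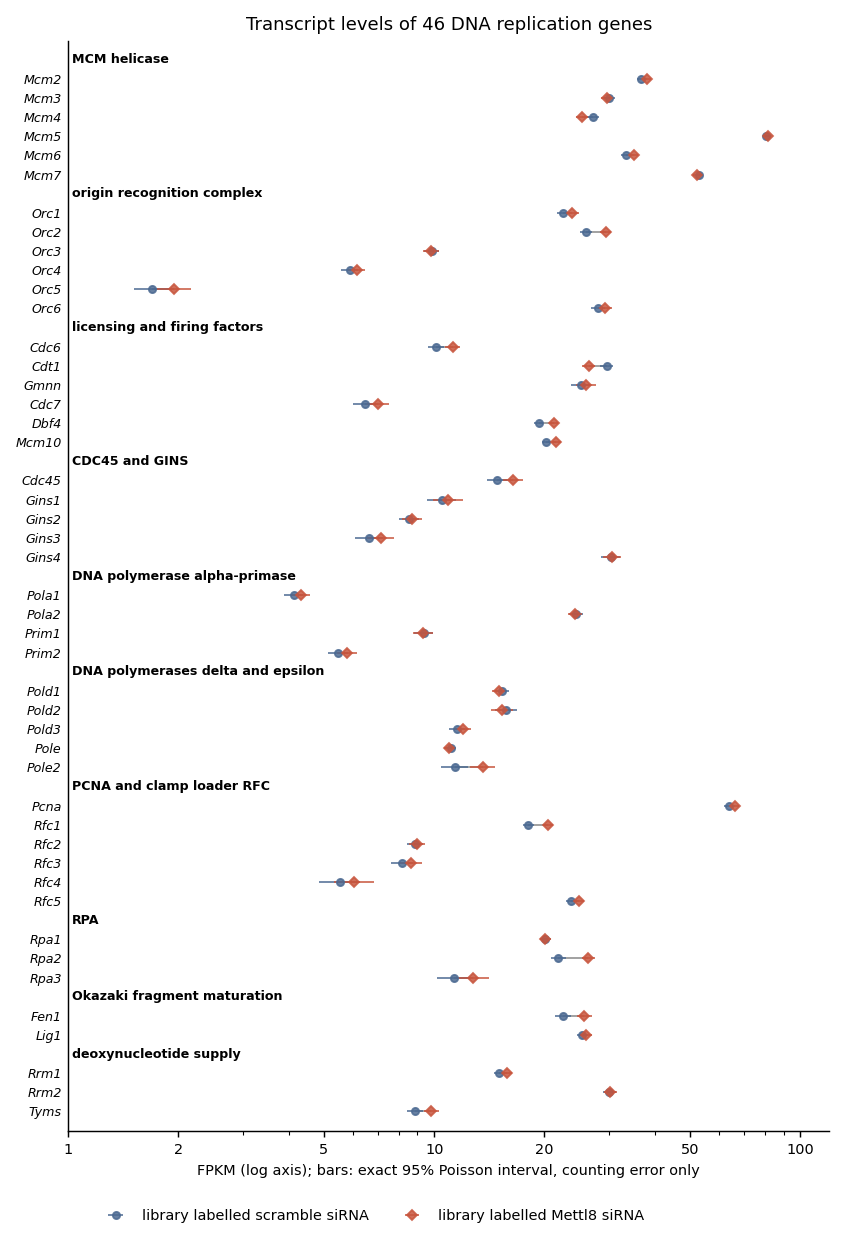
Transcript level of each of the 46 replication genes (FPKM, log axis) in the library labelled scramble siRNA (circles) and the library labelled Mettl8 siRNA (diamonds), with exact 95% Poisson intervals and 1 library per label. Mcm5, Pcna and Mcm7 are highest and Orc5 is lowest in both libraries.

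E2F factors, the transcription factors best known for switching on S phase genes, bind sequences such as TTTGGCGC, TTTCGCGC, TTTCCCGC and TTTGCCGC. These 4 motifs were searched on both strands in RefSeq windows (GRCm38.p6) from 250 bases before to 50 after the start site. Of the 46 genes, 38 were matched by symbol, all but Mcm4, Gmnn, Gins1, Gins2, Gins4, Prim2, Pole and Rfc2. A motif stands in the windows of 15 of the 38, or 39.5%. The same windows hold one for 2.60% of all 27025 genes, 3.29% of 17492 protein-coding genes and 5.27% of the 7798 protein-coding genes with a mean of at least 1 FPKM. Lists of related genes had higher shares than these in most cases. A motif was held by 2 of 6 other subunits of the complexes (33.3%), 4 of 16 firing and fork factors (25%), 2 of 9 chromatin assembly genes (22.2%), 1 of 8 genes of licensing control by degradation (12.5%) and 0 of 12 nucleotide synthesis enzymes. The 20 mitosis genes held one in 1 of 17 with an entry (5.88%). In Mcm5 and Mcm6, matches on both strands overlap and are joined in 1 run of capitals. A match describes the letters and not a bound site, and no binding was measured.

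The motifs that lie wholly before the RefSeq start site belong to 9 genes and are shown because they carry this shared feature. By the outermost gene start annotated in GENCODE M21, the motifs shown for Mcm7, Orc1, Cdc6, Gins3 and Rfc3 lie after the start. Each line runs 5′ to 3′ on the strand of the gene, with the motif letters in capitals. The stretches are, in order, at chr8:75109336-75109387 (plus strand), chr1:128359725-128359835 (minus), chr5:138172021-138172068 (minus), chr4:108579407-108579453 (plus), chr4:34614956-34615003 (minus), chr11:98907993-98908040 (plus), chr8:95633498-95633545 (plus), chrX:93632266-93632313 (minus) and chr5:151651209-151651238 (minus).
Mcm5: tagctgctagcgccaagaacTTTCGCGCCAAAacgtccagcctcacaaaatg
Mcm6: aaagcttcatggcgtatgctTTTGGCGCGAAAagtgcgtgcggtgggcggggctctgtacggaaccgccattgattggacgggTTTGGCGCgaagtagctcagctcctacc
Mcm7: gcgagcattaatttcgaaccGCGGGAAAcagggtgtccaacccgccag
Orc1: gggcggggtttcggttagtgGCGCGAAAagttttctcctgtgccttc
Orc3: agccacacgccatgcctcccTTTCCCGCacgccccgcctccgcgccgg
Cdc6: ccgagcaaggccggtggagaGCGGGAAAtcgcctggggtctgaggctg
Gins3: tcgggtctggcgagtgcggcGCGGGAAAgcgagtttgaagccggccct
Pola1: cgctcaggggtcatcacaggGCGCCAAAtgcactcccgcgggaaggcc
Rfc3: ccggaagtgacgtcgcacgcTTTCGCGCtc

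In Mcm6 the motif occurs at 2 places, 110 and 47 bases before the start. The other 6 genes with a motif are Mcm3, Cdt1, Pold1, Pold3, Pole2 and Lig1, whose matches lie after the RefSeq start site. The 15 genes with a motif had a median difference of 0.050, with 10 of 15 higher in the library labelled Mettl8 siRNA. For the 23 genes without one the median was 0.088, with 20 of 23 higher. The median was thus smaller for the genes with a motif, and the difference between these sets was not tested. Their median level was 15.3 and 15.1 FPKM, against 19.3 and 20.5 FPKM for genes without.

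**Figure D2:**
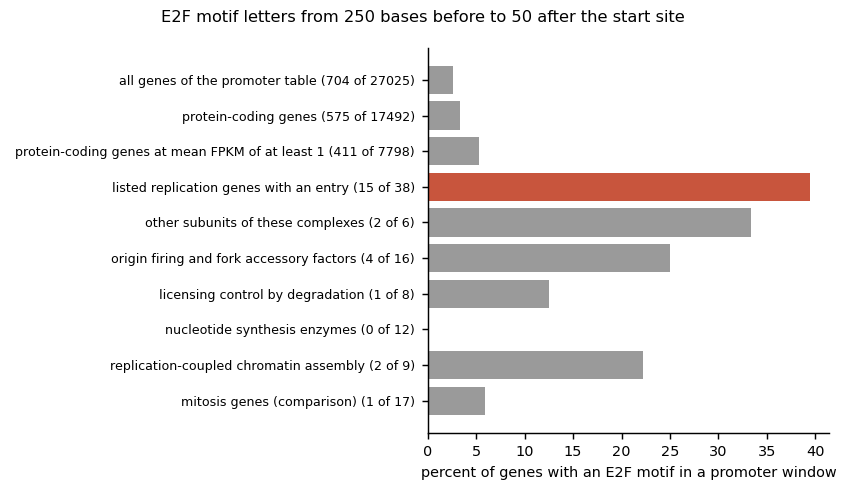
Percent of genes with at least 1 of the 4 E2F motifs in a RefSeq promoter window, with the number of genes in brackets, for the 38 of the 46 listed genes that have an entry (red) and for other sets (grey). Their bar reaches 39.5%, against 5.27% for expressed protein-coding genes and 33.3% for other subunits of these complexes.

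Most replication genes were slightly higher in the library labelled Mettl8 siRNA. Of the 46, 36 (78.3%) were higher and 10 lower, and the median difference was 0.056. Among genes with a mean of at least 1 FPKM, 54.1% of all 13243 and 54.5% of 9948 protein-coding genes were higher, and the median was 0.013 for either set. Among 5163 protein-coding genes with a mean of at least 5 FPKM, a range that holds 44 of the 46, 60.8% were higher and the median was 0.028. The share of members that were higher was thus above each of these backgrounds, and most of the differences were small. No background was matched for level: the last had medians of 10.9 and 11.2 FPKM, against 16.9 and 18.3 for the members. Across the 9948 protein-coding genes the difference rose slightly with mean level (Spearman rho 0.140), while across the 46 members rho was -0.243. Dividing each library by its FPKM sum, which moves the median of all genes to 0.089, gave 44 higher and 2 lower, against 75.5% of all genes. Centring on the median of all genes gave 34 higher and 12 lower.

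By size, 8 members (17.4%) were at least 1.1-fold higher on the log2(FPKM + 1) scale and 1 (2.17%) at least 1.1-fold lower. The backgrounds for 1.1-fold higher were 14.2% of all genes, 9.90% of protein-coding genes and 10.7% of protein-coding genes at 5 FPKM or more. For 1.1-fold lower they were 13.7%, 9.32% and 6.29%. The higher count is not far from its backgrounds, whereas lower members were fewer than in any of them. At 1.5-fold in either direction, 0 of 46 members stood apart, against 2.11% of all and 0.101% of protein-coding genes.

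Counting error alone set a finer limit. The interval of the ratio lay above 1 for 13 members (28.3%), against 11.6%, 13.8% and 20.7% in the same 3 backgrounds. It lay below 1 for 2 members (4.35%), against 7.85%, 8.78% and 9.80%. For the other 31 members it held 1, so their difference was not detectable at this depth. Such intervals narrow with the number of reads, which ran from 241 for Rfc4 to 9160 for Mcm5 in the first library. The summed reads of all 46 genes had a ratio of 1.04 (1.03 to 1.05).

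**Figure D3:**
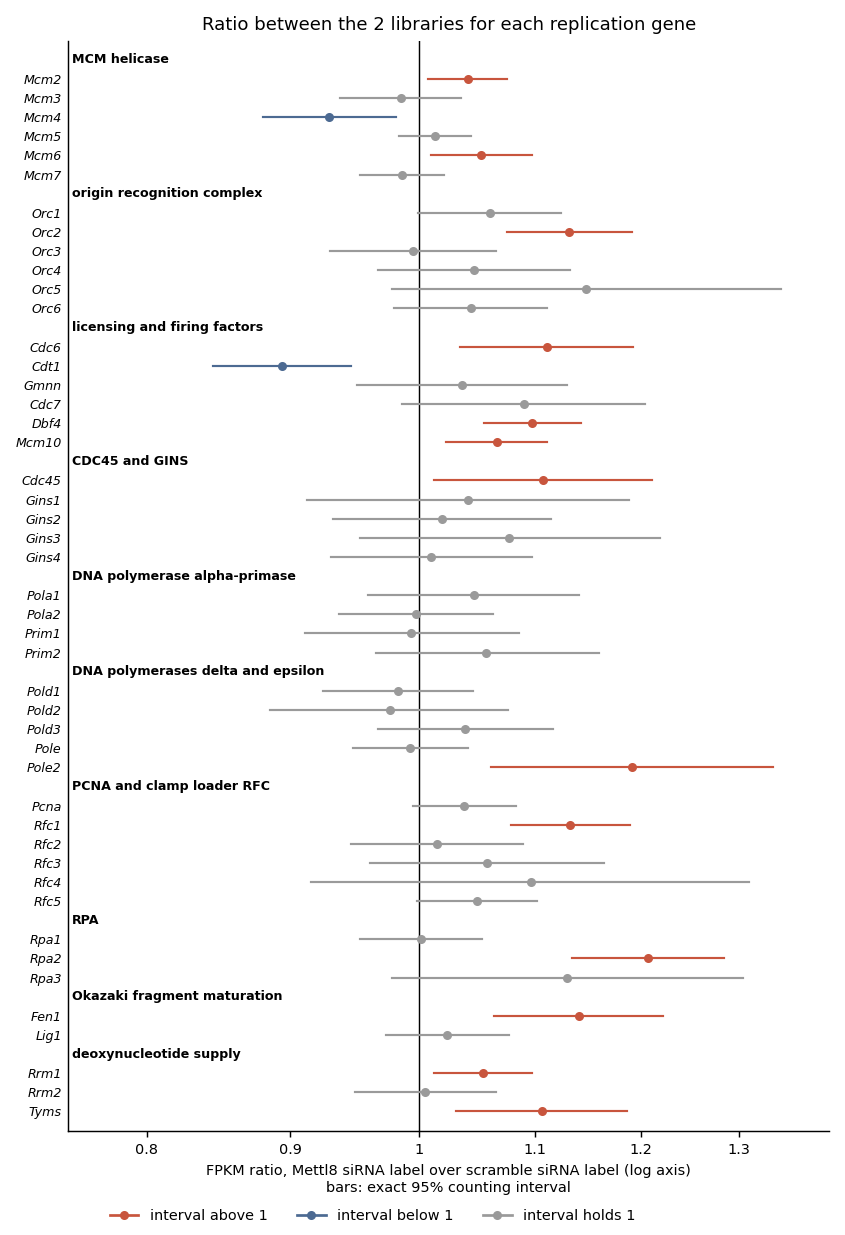
Ratio of the FPKM values (library labelled Mettl8 siRNA over library labelled scramble siRNA, log axis) for each replication gene with its exact 95% counting interval. The interval lies above 1 for 13 genes (red), below 1 for Mcm4 and Cdt1 (blue) and holds 1 for the other 31 (grey).

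The MCM helicase had high transcript levels and no common direction. Mcm5 was 80.6 and 81.7 FPKM, the highest FPKM of the 46 genes in both libraries. Within the complex, Mcm7 followed at 53.0 and 52.3 FPKM, Mcm2 at 36.7 and 38.2, and Mcm6 at 33.3 and 35.1. Mcm3 was 30.05 and 29.6 FPKM. Mcm4 was the lowest subunit, at 27.2 and 25.3 FPKM. The 6 proteins form 1 ring with a single copy of each, yet Mcm5 stood 2.30-fold and 2.23-fold above the median of the complex and Mcm4 at 0.777 and 0.690 of it. By the length of the principal transcript, Mcm5 stood at 1.47 and 1.44 times the median and Mcm4 at 0.421 and 0.376, so which of them is 2-fold off depends on the length used. Mcm2 (ratio 1.04, 1.01 to 1.08) and Mcm6 (1.05, 1.01 to 1.097) were higher in the second library beyond counting error, while Mcm4 was lower (0.929, 0.880 to 0.981). The calls for Mcm2 and Mcm4 depend on the scaling. For Mcm2 the lower limit was 1.007, and its interval holds 1 once centred on the median of all genes. With each library divided by its FPKM sum, the difference of Mcm4 was -0.012 and 0 members had an interval below 1. The order of the 6 levels was the same in both libraries. Mcm5 lies on chromosome 8 (GRCm38, 75109569 to 75128439, plus strand) and Mcm4 on chromosome 16 (15623897 to 15637400, minus strand).

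ORC, which marks origins for licensing, had the widest spread of subunit levels. Orc6, the smallest subunit, was 28.0 and 29.2 FPKM, Orc2 was 26.0 and 29.4, and Orc1, an ATPase subunit, was 22.5 and 23.9. Orc3 was lower, at 9.84 and 9.79 FPKM, and Orc4 lower still at 5.87 and 6.14. The gap between Orc1 and Orc3 depends on the length used: per kilobase of principal transcript they were close, Orc1 at 26.0 and 27.5 and Orc3 at 26.05 and 25.9. Orc5 was the lowest of all 46 genes, at 1.70 FPKM (1.51 to 1.90) and 1.95 (1.74 to 2.17). The highest subunit exceeded the lowest 16.5-fold in the first library and 15.1-fold in the second. Orc6 led in the first library and Orc2 in the second, and their intervals overlapped in each. The difference between these neighbours was not tested. Per kilobase of principal transcript Orc6 led in both libraries, at 53.7 and 56.0 against 28.2 and 31.9 for Orc2. Orc2 had the only ORC ratio with an interval above 1, at 1.13 (1.08 to 1.19). In all, 5 of the 6 subunits were higher, against 54.1% of all genes with a mean of at least 1 FPKM. The strand setting of the counts is unknown, so reads of Orc2 cannot be told apart from those of Nif3l1, a gene on the other strand that shares 29.8% of the exon bases of Orc2 and was 7.23 and 7.89 FPKM.

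Among licensing and firing factors, Cdt1 stood against the rest. Cdt1, which brings MCM to ORC, was 29.6 and 26.4 FPKM, a ratio of 0.894 (0.845 to 0.945) and the only member at least 1.1-fold lower. This call depends on the scaling: with each library divided by its FPKM sum, the difference of Cdt1 was -0.066, short of that limit. Its partner in loading, Cdc6, was 10.1 and 11.2 FPKM, a ratio of 1.11 (1.03 to 1.19). Gmnn, the gene of geminin, which binds CDT1 and blocks loading once S phase has begun, was 25.1 and 26.0 FPKM (ratio 1.04, 0.950 to 1.13). The ratio of Gmnn to Cdt1 was therefore 0.849 and 0.984. Dbf4, the activator of the CDC7 kinase, was 19.3 and 21.2 FPKM with an interval of the ratio from 1.05 to 1.14. The kinase gene Cdc7 was 6.46 and 7.04 FPKM, with an interval of 0.986 to 1.204. Mcm10, which helps the loaded helicase to fire, was 20.2 and 21.6 FPKM (1.02 to 1.11). In this group of 6, 5 were higher, 1 was lower and the median difference was 0.098. Of protein-coding genes at 5 FPKM or more, 60.8% were higher. Cdt1 lies on chromosome 8 (GRCm38, 122568015 to 122573554, plus strand) and has 5 annotated transcripts.

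The helicase partners CDC45 and GINS were higher in the second library in 5 of 5 genes, by small amounts. The share higher was 54.1% of all genes and 60.8% of protein-coding genes at 5 FPKM or more. Cdc45 was 14.8 and 16.4 FPKM (ratio 1.11, 1.01 to 1.21), the only one of the 5 beyond counting error. GINS is a complex of 4 proteins in equal number, and its transcripts were uneven. Gins4 was 30.3 and 30.6 FPKM, while Gins1 was 10.5 and 10.9, Gins2 was 8.52 and 8.68, and Gins3 was 6.64 and 7.15. Gins4 thus stood 3.19-fold and 3.13-fold above the GINS median, in the same order in both libraries. The value of Gins2 is uncertain, because 67.3% of its exon bases are shared with Gse1, a gene of the other strand at 5.06 and 4.22 FPKM.

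Polymerase alpha-primase, which starts each new strand, had no subunit apart beyond counting error. Pola2, a regulatory subunit, was 24.3 FPKM in each library. By the deposited lengths, the primase genes Prim1 (9.36 and 9.30 FPKM) and Prim2 (5.47 and 5.78) and the catalytic subunit gene Pola1 (4.13 and 4.32) were far lower. The intervals of all 4 ratios held 1, and 2 genes were higher and 2 lower. Pola2 stood 3.28-fold and 3.22-fold above the median of the complex, but this mixes kinds of length. Its deposited length is 2872 bases, against 8294 for all its annotated exons, while each other subunit was scaled by all of its exons. Per kilobase of principal transcript Pola2 was 28.9 and 28.8, Prim1 was 22.9 and 22.7, and Prim2 was 16.4 and 17.4. On that scale Pola2 stood at 1.47 and 1.44 times the median.

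By the deposited lengths, the listed genes of the leading- and lagging-strand polymerases were of like level. Only 1 of them differed between the libraries beyond counting error. Pold1, the catalytic subunit of polymerase delta, was 15.3 and 15.1 FPKM, Pold2 was 15.7 and 15.3, and Pold3 was 11.6 and 12.0. By its listed subunits delta had the smallest spread of any complex, 1.36-fold and 1.28-fold from lowest to highest. The list leaves out Pold4, a further subunit, which was 4.09 and 3.95 FPKM and so below each of these. With Pold4 the spread of delta would be wider. Pole, the catalytic subunit of polymerase epsilon, was listed at 11.08 and 11 FPKM. Pole2, its second subunit, was 11.4 and 13.6 FPKM, a ratio of 1.19 (1.06 to 1.34) on 549 and 639 reads. The ratio of Pole2 to Pole was 1.03 and 1.23, but this mixes kinds of length. The deposited length of Pole2 is 1695 bases, against 2881 for all its annotated exons, while Pole was scaled by all of its exons. By the length of the principal transcript the ratio was 0.655 and 0.786. Pole2 lies on chromosome 12 (GRCm38, 69201773 to 69228195, minus strand).

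The clamp and its loader were higher in 6 of 6 genes, against 60.8% of protein-coding genes at 5 FPKM or more. For 5 of the 6 the interval of the ratio held 1. Pcna was 63.7 and 66.1 FPKM, second only to Mcm5 in both libraries, with a ratio of 1.04 (0.995 to 1.08). Rfc1, the large subunit of the loader, was 18.1 and 20.5 FPKM, and its ratio of 1.13 (1.08 to 1.19) was the only one of the group beyond counting error. Rfc5 was 23.7 and 24.8 FPKM, Rfc2 was 8.86 and 8.99, Rfc3 was 8.17 and 8.64, and Rfc4 was 5.52 and 6.05. The value of Rfc4 is uncertain, since 12.7% of its exon bases are shared with Eif4a2, a gene of the other strand with 12449 and 12090 reads against 241 and 258 for Rfc4. RFC holds 1 copy of each subunit, and its transcripts spanned 4.29-fold and 4.10-fold in the same order in both libraries. The processed pseudogene Pcna-ps2 was listed at 26.7 and 25.7 FPKM, so reads of Pcna and this copy may be split between them.

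RPA, the complex that coats single-stranded DNA, held the largest difference of the list. Rpa2, which carries the phosphorylated tail of the complex, was 21.8 FPKM (20.9 to 22.9) and 26.3 (25.2 to 27.5). Its ratio was 1.21 (1.13 to 1.28) and its difference 0.26. Rpa1, the main DNA-binding subunit, was 20.1 FPKM in each library, with a ratio of 1.00 (0.953 to 1.05). Rpa3, the smallest subunit, was 11.3 and 12.8 FPKM, and its interval of 0.978 to 1.305 held 1. Relative to the median of RPA, Rpa2 moved from 1.09 to 1.31, the largest shift among the 31 subunits of the 7 complexes compared, while Mcm4 moved most in the other direction. Rpa2 lies on chromosome 4 (GRCm38, 132768332 to 132778752, plus strand) and its principal transcript has 9 exons.

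Enzymes that finish the lagging strand and supply deoxynucleotides were higher in 5 of 5 genes. Of protein-coding genes at 5 FPKM or more, 60.8% were. Fen1, the nuclease that trims flaps, was 22.5 and 25.7 FPKM, a ratio of 1.14 (1.06 to 1.22). An antisense gene, Gm10143, shares 78.8% of the exon bases of Fen1 and had 1531 and 1724 reads against 1552 and 1729 for Fen1, so the reads of these genes cannot be told apart. Lig1, the ligase that seals the fragments, was 25.4 and 26.0 FPKM (ratio 1.02, 0.973 to 1.08). For ribonucleotide reductase, Rrm1 was 15.0 and 15.8 FPKM (ratio 1.05, 1.01 to 1.097) and Rrm2, its cell cycle-regulated subunit, was 30.05 and 30.2. Tyms, the gene of thymidylate synthase, was 8.88 and 9.82 FPKM, a ratio of 1.11 (1.03 to 1.19).

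Levels of subunits depended on the length used to scale them. The deposited length equals the union of all annotated exons in GENCODE M21 for 42 of the 46 genes, and exceeds the principal protein-coding transcript 1.42-fold at the median and 3.63-fold for Dbf4. Scaled by the principal transcript instead, Rrm2 no longer exceeded Rrm1: the ratio went from 2.00 to 0.918 in the first library and from 1.91 to 0.876 in the second. Dbf4 exceeded Cdc7 by 2.99-fold as deposited and by 8.12-fold on that scale. Orc5 remained the lowest ORC subunit, at 4.98 and 5.71 per kilobase of principal transcript, and the spread of ORC narrowed from 16.5-fold to 10.8-fold. Mcm5 and Gins4 led their complexes on either scale, but Pcna, at 100.7 and 104.5 per kilobase of principal transcript, exceeded Mcm5 at 95.2 and 96.4. Pola2 went from 3.28 to 1.47 times the median of its complex and Rfc1 from 2.04 to 1.02 times. The number of subunits at least 2-fold from the median of their complex was 7 in each library as deposited and 8 on the other scale, but only 3 were shared, namely Orc4, Orc5 and Gins4. Mcm5, Pola2, Rfc1 and Rfc5 met that limit only as deposited, and Mcm4, Orc6, Pola1, Rfc2 and Rfc4 only on the other scale.

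**Figure D4:**
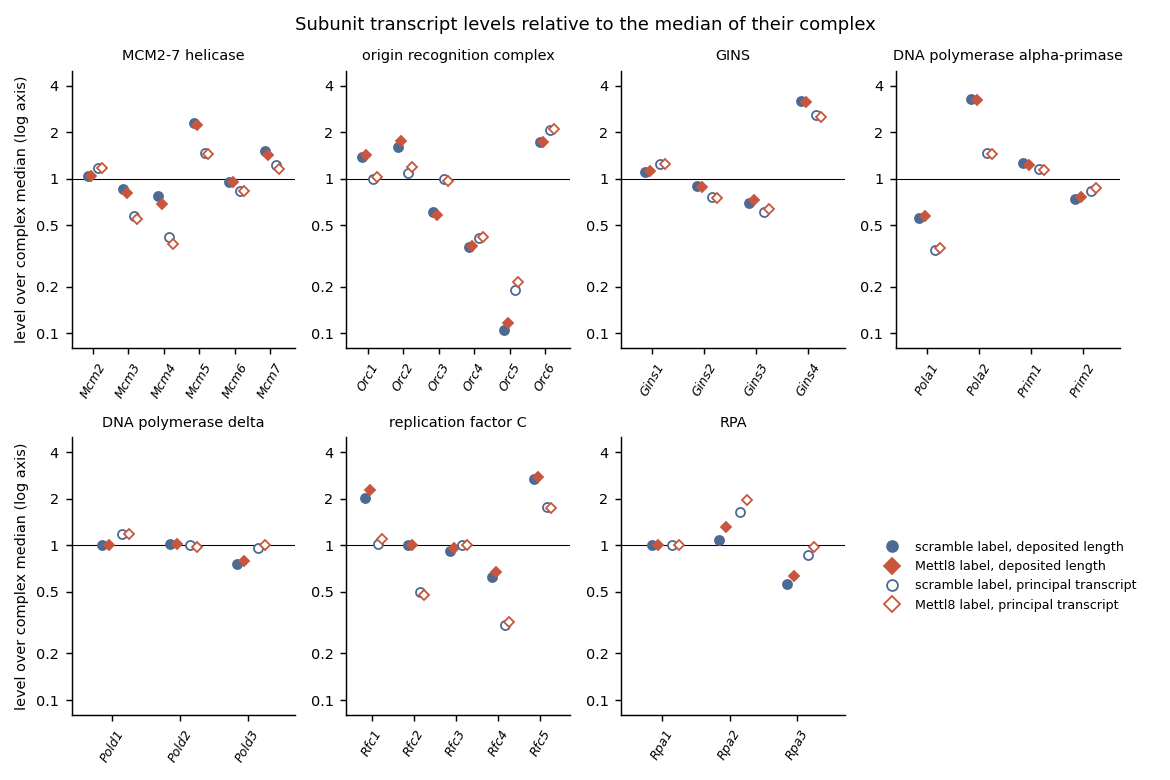
Level of each subunit over the median of its complex (log axis) for 7 complexes, in the library labelled scramble siRNA (circles) and the library labelled Mettl8 siRNA (diamonds), from the deposited gene length (filled) and from the length of the principal transcript (open). Orc5 is lowest within ORC and Gins4 highest within GINS on both scales, while Pola2 and Rfc1 lie nearer to 1 on the second.

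Other genes of the replication pathway, from lists of 59 genes, gave like values. Of 57 with a mean of at least 1 FPKM, 43 (75.4%) were higher, and the median was 0.064. The share higher was 54.1% of all genes and 60.8% of protein-coding genes at 5 FPKM or more. At least 1.1-fold higher were 6, a share close to the 9.90% and 10.7% of protein-coding genes, and 0 were lower by that much. Further subunits and partners of the complexes were higher in 4 of 6. Pole3, a histone-fold subunit of polymerase epsilon, led at 5.92 and 7.07 FPKM, followed by Mcmbp (12.2 and 13.0) and Lrwd1 (8.19 and 8.78). Dbf4b was not analysed here. Origin firing and fork factors were higher in 15 of 21. Among these Mtbp, a partner of the firing factor gene Ticrr, was 3.95 and 4.78 FPKM, Chtf8 was 26.5 and 30.8, and Rnaseh2b, a subunit of an RNase that removes RNA from DNA, was 4.61 and 5.25.

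Control of licensing by protein breakdown was represented by 8 genes, of which 7 were higher. For this and the next 2 lists, the share of all genes that were higher was 54.1%. Skp2 (1.41 and 1.68 FPKM) and Dtl (6.95 and 7.64) encode ubiquitin ligase adaptors that act on CDT1, and Fbxo5 (34.4 and 37.2) encodes EMI1, an inhibitor of the anaphase-promoting complex. Nucleotide synthesis enzymes were higher in 10 of 13, with Dut, which removes dUTP, at 24.5 and 27.1 FPKM, Dck at 6.21 and 6.90, and Gmps at 16.7 and 18.2. Chromatin assembly genes were higher in 7 of 9, with the histone chaperone genes Asf1a (9.45 and 10.4 FPKM) and Asf1b (16.2 and 17.7) and Rbbp4 (31.4 and 33.0).

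A list of 20 mitosis genes, which act later in the cycle, was higher in 15 of 20, with a median of 0.023. Of protein-coding genes with a mean of at least 1 FPKM, 54.5% were higher. Kif11, a spindle motor, was 25.3 and 29.3 FPKM, Mad2l1 was 10.6 and 12.2, and Incenp was 11.65 and 10.5. The share that was higher was thus close to that of the replication genes, while the median lay nearer to that of protein-coding genes. The difference between the lists was not tested. Stem cell markers went the other way, with 9 of 10 lower, a median of -0.058 and a summed level of 1381 and 1342 FPKM. Pou5f1 was the 1 marker that was higher, whereas 60.8% of protein-coding genes at 5 FPKM or more were. Utf1 (43.5 and 36.9 FPKM), Klf4 (20.1 and 17.5) and Sox2 (94.8 and 85.8) were at least 1.1-fold lower, against 6.29% of those genes. The interval of the ratio lay below 1 for 6 of the 10 markers, against 9.80%. The part of the stem cell markers in the differences of the replication genes was not tested.

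**Figure D5:**
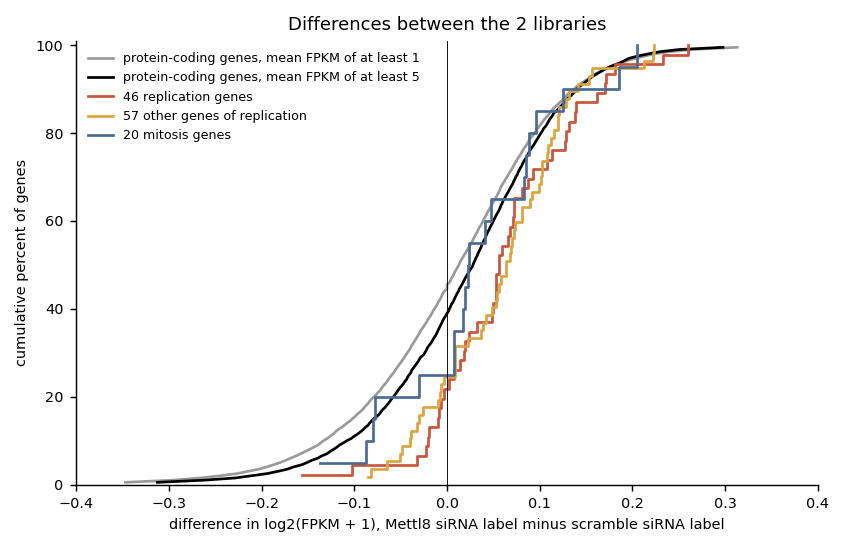
Cumulative percent of genes by difference in log2(FPKM + 1), library labelled Mettl8 siRNA minus library labelled scramble siRNA, for the 46 replication genes, 57 other genes of replication, 20 mitosis genes and protein-coding genes at 2 limits of mean FPKM. The curve of the replication genes lies to the right of the protein-coding curves near its middle, with medians of 0.056 against 0.013 and 0.028.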

How the data were processed

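RNA of 2 libraries was sequenced, 1 per siRNA. The authors deposited FPKM values rounded to 2 decimals beside gene lengths. The tools were STAR 2.4.0i, featureCounts 1.5.0-p1 and the mm10 build, per the submitters' processing notes. The annotation, strandedness and multimapping rules were not given in the sources used here. The product of FPKM and length was a whole multiple of a library's step for 100% of 3121 and 3563 low values (length below 400 bases, below 30 reads, tolerance 0.005 reads beyond rounding). This gave denominators of 28.5 and 27.8 M (mega) reads and the reads per gene, to within 1.59 reads for the longest member. Ratios were given exact Clopper-Pearson intervals and levels exact Poisson intervals, both at 95%. A pseudocount of 1 and a minimum mean of 1 FPKM were used. With 1 library per group no test was made; folds of 1.1 and 1.5 served as rules of size.

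Gene types, exons and principal transcripts came from GENCODE M21 (GRCm38, the assembly of mm10), and promoters from RefSeq (GRCm38.p6). All members are named, with the 3 largest differences of each other list. Pold4 is named as a further subunit of polymerase delta. The members and lists were chosen with earlier results of these data known. The alternatives were a pseudocount of 0.1, 2 scalings, 2 filters, a length term, a protein-coding background and a geometric mean. Principal transcript lengths, counting intervals under both scalings, and leaving out members that share exon bases were added after seeing the data. Steps were tested on simulated data with Python 3.11.15 and SciPy 1.17.1.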

Additional observations from a re-analysis of the deposited data

How the results depend on the processing

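Dividing each library by its FPKM sum moved the values most: the median difference of the members was 0.146, 26 were at least 1.1-fold higher (33.7% of all genes were) and 0 lower (7.47%), and the counting interval lay above 1 for 34 (30.3%) and below 1 for 0 (2.20%). On that scale, which is that of TPM, the median levels were 27.1 and 31.2. It adds the same log2 shift of 0.094 to each ratio. A single value holds a large part of each sum: 207785 of 623735 FPKM in the first library and 187579 of 584527 in the second. The highest protein-coding values were 2662 and 2434 FPKM. The median difference was 0.043 when centred on all genes and 0.042 minus the median of genes of like length. Under the other alternatives each count of members kept within 1.5 times. A pseudocount of 0.1 gave 10 at least 1.1-fold higher, against 18.6% of all genes. Leaving out members that share at least 10% of their exon bases with another gene kept 39. Of these, 29 were higher and 10 lower, against 54.1% of all genes higher. No member at least 1.1-fold apart changed direction under the alternatives run for single members. The depth limits differences of the lowest members: with 241 and 258 reads, the interval for Rfc4 ran from 0.915 to 1.31. With 1 library per group, leaving out a library was not possible.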
